A study of Homo sapiens with 2 samples.

Results

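The nuclear genome encodes most protein subunits of the mitochondrial respiratory chain and of ATP synthase. Of the 23033 genes with an FPKM value, 85 were taken as such subunits. They were chosen by name, as protein-coding genes whose current NCBI symbol is NDUFA, NDUFB, NDUFC, NDUFS or NDUFV with a number, SDHA to SDHD or CYC1, or begins with UQCR, COX4, COX5, COX6, COX7, COX8, ATP5F1, ATP5M or ATP5P. The rule uses no expression value, although it was proposed with earlier results of these data known. RNAseq of total RNA from control (genotype WT) and FZR1 ko breast cancer cells was compared, with 1 library per condition, so no difference has a replicate check and no p-value is given. Both libraries are labelled T-47D, a luminal breast cancer cell line, and both were treated with 2 µg/ml cisplatin, a platinum drug that crosslinks DNA. An untreated library was not analysed here. FZR1, also called CDH1 of the anaphase-promoting complex and unrelated to E-cadherin, is an activator of this ubiquitin ligase. The FZR1 ko line was made with CRISPR/Cas9 and grown from a single cell, so it is 1 clone, and a difference between clones cannot be told apart from an effect of FZR1. In bulk RNA, fewer cells with a transcript and less of the transcript per cell cannot be told apart either.

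FPKM scales fragments to transcript length and to the mapped fragments of a library, so it allows levels of different genes to be set side by side, and the number of reads behind a value is unknown. Each ratio is log2 of FPKM + 1 in FZR1 ko divided by FPKM + 1 in control. It was taken for the 13554 genes that reached 1 FPKM in either library, which are called the genes compared, and whose median log2 ratio was -0.0048. In pairs of FPKM values control comes first, and a value in brackets after a pair is the log2 ratio. The targeted gene, FZR1 (Entrez 51343), was at 12.3 FPKM in control against 10.1 in FZR1 ko (log2 ratio -0.26). The paper reports the loss of FZR1 by western blot, and why its mRNA differed little was not tested. The labelled cell type was checked with 18 luminal markers, 17 of which were in the table and 9 of which were compared. The defining ones ESR1, PGR and GATA3 were each at or below 0.31 FPKM in both libraries, which goes against a luminal label, while KRT8 and KRT18 were high. Summed over the luminal list the level was 1507 FPKM in control against 1859 FPKM in FZR1 ko. KRT8 and KRT18 made up 1382 and 1738 FPKM of these sums, and the other 15 luminal markers 125.2 and 120.4 FPKM. The 16 basal and mesenchymal markers summed to 534 and 509 FPKM, most of it from VIM, KRT17 and CD44, and of the 12 compared 6 were higher in FZR1 ko and 6 lower. At least 2-fold higher were 3 of these 12, among them CDH2 (2.97 and 15.3 FPKM), and 2 of the 9 luminal markers (22.2%), EPCAM (3.90 and 11.5 FPKM) and MLPH (3.09 and 12.2 FPKM), beside 6.78% of all genes compared, and none was at least 2-fold lower. KRT17, a basal keratin, was at 103 and 55.8 FPKM. The part of these differences in the ratios below was not tested.

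In the respiratory chain, electrons from NADH enter at complex I and electrons from succinate at complex II. Ubiquinone carries them to complex III, and cytochrome c carries them on to complex IV, which reduces oxygen. Complexes I, III and IV pump protons out of the matrix, and complex V, the ATP synthase, uses their return to make ATP. Complexes I, III, IV and V are built from subunits of both genomes, and complex II from nuclear subunits alone. None of the 13 subunits encoded by mitochondrial DNA was matched by its MT- symbol among the genes with a value, so these subunits are not described here.

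Most respiratory chain subunits were abundant and differed little between control and FZR1 ko. Of the 85 genes, 80 were compared. The median level of these was 106 FPKM in control and 119 in FZR1 ko, beside 9.28 and 9.75 FPKM over all genes compared. All 85 summed to 13737 FPKM in control (2.73% of the library's FPKM) and 14291 FPKM in FZR1 ko (2.86%), a ratio of 1.04. Of the 80 subunits, 46 were higher in FZR1 ko and 34 were lower, which makes 57.5% higher beside 49.6% of all genes compared. Their median log2 ratio was 0.056, with quartiles of -0.13 and 0.32, while the quartiles of all genes compared were -0.42 and 0.43.

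Few subunits passed a fold threshold. At least 1.5-fold higher in FZR1 ko were 4 subunits (5.0%), ATP5MC1, ATP5MC2, ATP5F1D and COX7B2, beside 18.0% of all genes compared. At least 1.5-fold lower were 5 subunits (6.25%), UQCRHL, COX6B2, NDUFA6, UQCRC2 and UQCRFS1, beside 17.6%. At 2-fold, COX7B2 was the 1 subunit higher (beside 6.78% of all genes compared), and UQCRHL and COX6B2 were the 2 lower (2.50%, beside 6.72%). The subunits are more abundant than most genes, and the part of level in these shares was not tested. Among the 5938 genes that reached 10 FPKM in each library, 10.3% were at least 1.5-fold higher and 15.2% lower, and among the 77 subunits in that range 3 (3.90%) were higher and 3 (3.90%) lower. The quartiles were then -0.12 and 0.32 for the subunits and -0.38 and 0.29 for all such genes. Across genes, the log2 ratio of the 80 subunits had a Spearman correlation of -0.091 with their mean FPKM, 0.13 with transcript length and 0.12 with the GC content of the transcript. These are descriptions across genes of 1 pair of libraries, and genes are not independent replicates.

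**Figure D1:**
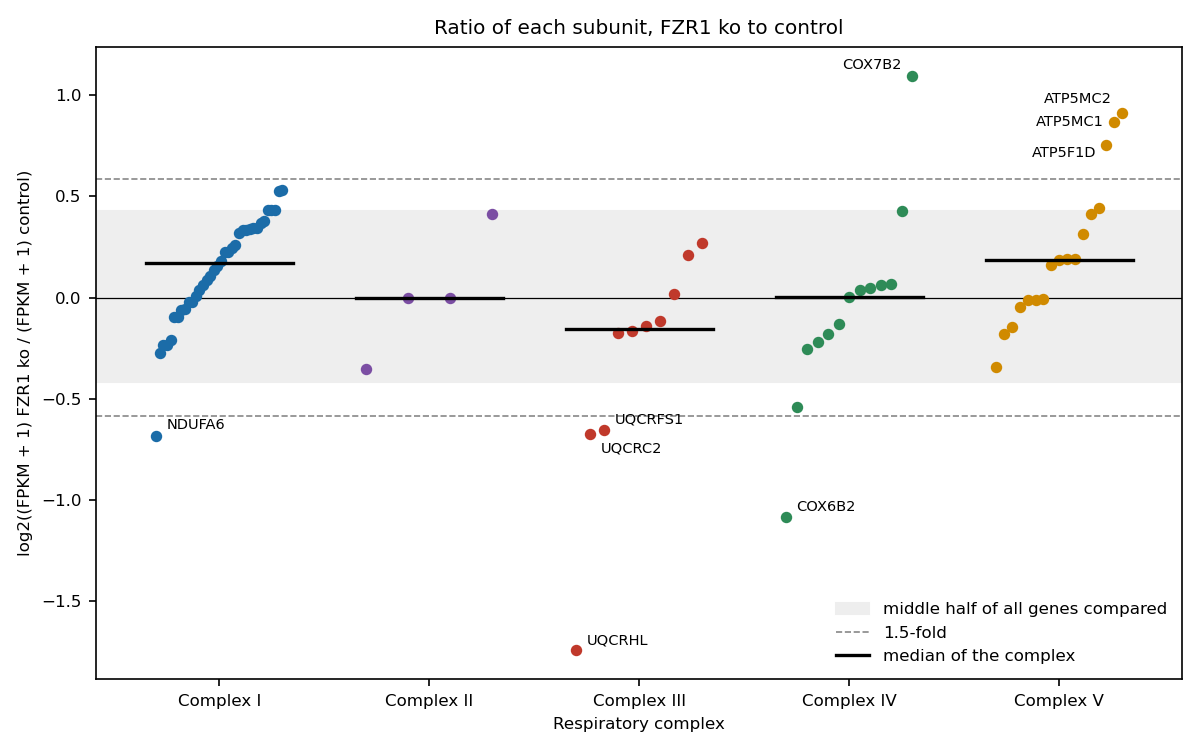
Log2 ratio of FPKM (with 1 FPKM added) in FZR1 ko to control for each of the 80 compared subunits, by complex, with 1 point per gene, a bar at the median of the complex, dashed lines at 1.5-fold and grey shading between the quartiles of all 13554 genes compared. The median is 0.17 in complex I and 0.19 in complex V, near 0 in complexes II and IV, and -0.15 in complex III (-0.043 with the trend with transcript length subtracted), and the 9 genes past 1.5-fold are named.

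Complex I oxidizes NADH and passes the electrons to ubiquinone. All 36 nuclear subunits that bear its symbols were compared, and 25 were higher in FZR1 ko and 11 lower. Their median log2 ratio was 0.17 (range -0.68 to 0.53), and their sum was 4640 FPKM in control against 4926 FPKM in FZR1 ko, a ratio of 1.06. No subunit was at least 1.5-fold higher, beside 18.0% of all genes compared, and 1 (2.78%, beside 17.6%) was at least 1.5-fold lower. Levels spanned from 10.2 FPKM for NDUFA5 in control to 578 FPKM for NDUFS6, an accessory subunit of the peripheral arm, in FZR1 ko. NDUFS6 had the highest mean level of the complex and measured 493 FPKM in control, a log2 ratio of 0.23.

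The 7 nuclear core subunits, which carry the flavin and the iron-sulphur clusters, were all higher in FZR1 ko. NDUFS7, which holds the last iron-sulphur cluster before ubiquinone, had 48.3 FPKM in control against 70.1 FPKM in FZR1 ko (log2 ratio 0.53), which is below 1.5-fold. With the trend of length and GC content subtracted it was at 0.64, past 1.5-fold. NDUFS1, the large iron-sulphur subunit of the NADH-oxidizing arm, had 46.8 FPKM in control against 59.7 FPKM in FZR1 ko (log2 ratio 0.34). NDUFV1, which binds NADH and the flavin, had 136 and 171 FPKM (0.33). The smallest ratios of the core belonged to NDUFV2, NDUFS8 and NDUFS3, which also bind or border the clusters. NDUFV2 measured 83.2 FPKM in control against 98.7 FPKM in FZR1 ko (0.24). NDUFS8 measured 142 and 162 FPKM (0.18). NDUFS3 measured 155 and 173 FPKM (0.16). The core genes summed to 687 FPKM in control against 843 FPKM in FZR1 ko, a ratio of 1.23, with a median log2 ratio of 0.33, and all 7 were higher in every one of the alternative settings tried. NDUFS1, however, was at 0.015 with the trend of the ratio with transcript length subtracted and at 0.14 with that of length and GC content.

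The 29 accessory subunits, which surround the core and are needed for its assembly and stability, were more mixed. In FZR1 ko 18 were higher and 11 lower, with a median log2 ratio of 0.086 and a ratio of sums of 1.03. NDUFB7, a small subunit on the intermembrane side, had 197 FPKM in control against 267 FPKM in FZR1 ko, which at 0.43 was the largest ratio of this group. NDUFA6, a subunit of the LYR motif family in the matrix arm, went furthest the other way. It had 97.6 FPKM in control against 60.4 FPKM in FZR1 ko (log2 ratio -0.68, and -0.56, inside 1.5-fold, with the trend of length and GC content subtracted), and lies on chr22:42085526-42090772 (coordinates are those of RefSeq on GRCh38.p14, the hg38 build used by the authors). The next lowest were NDUFB11 and NDUFB10, accessory subunits of the membrane arm. NDUFB11 had 203 FPKM in control against 168 FPKM in FZR1 ko (-0.28, and -0.125 with the length trend and -0.18 with that of length and GC content subtracted). NDUFB10 had 167 and 141 FPKM (-0.24, and -0.116 and -0.0009 with these trends subtracted). The gap between NDUFA6 and NDUFB11 was thus wider than the gap between any other neighbours in the order of the 36 genes.

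**Figure D2:**
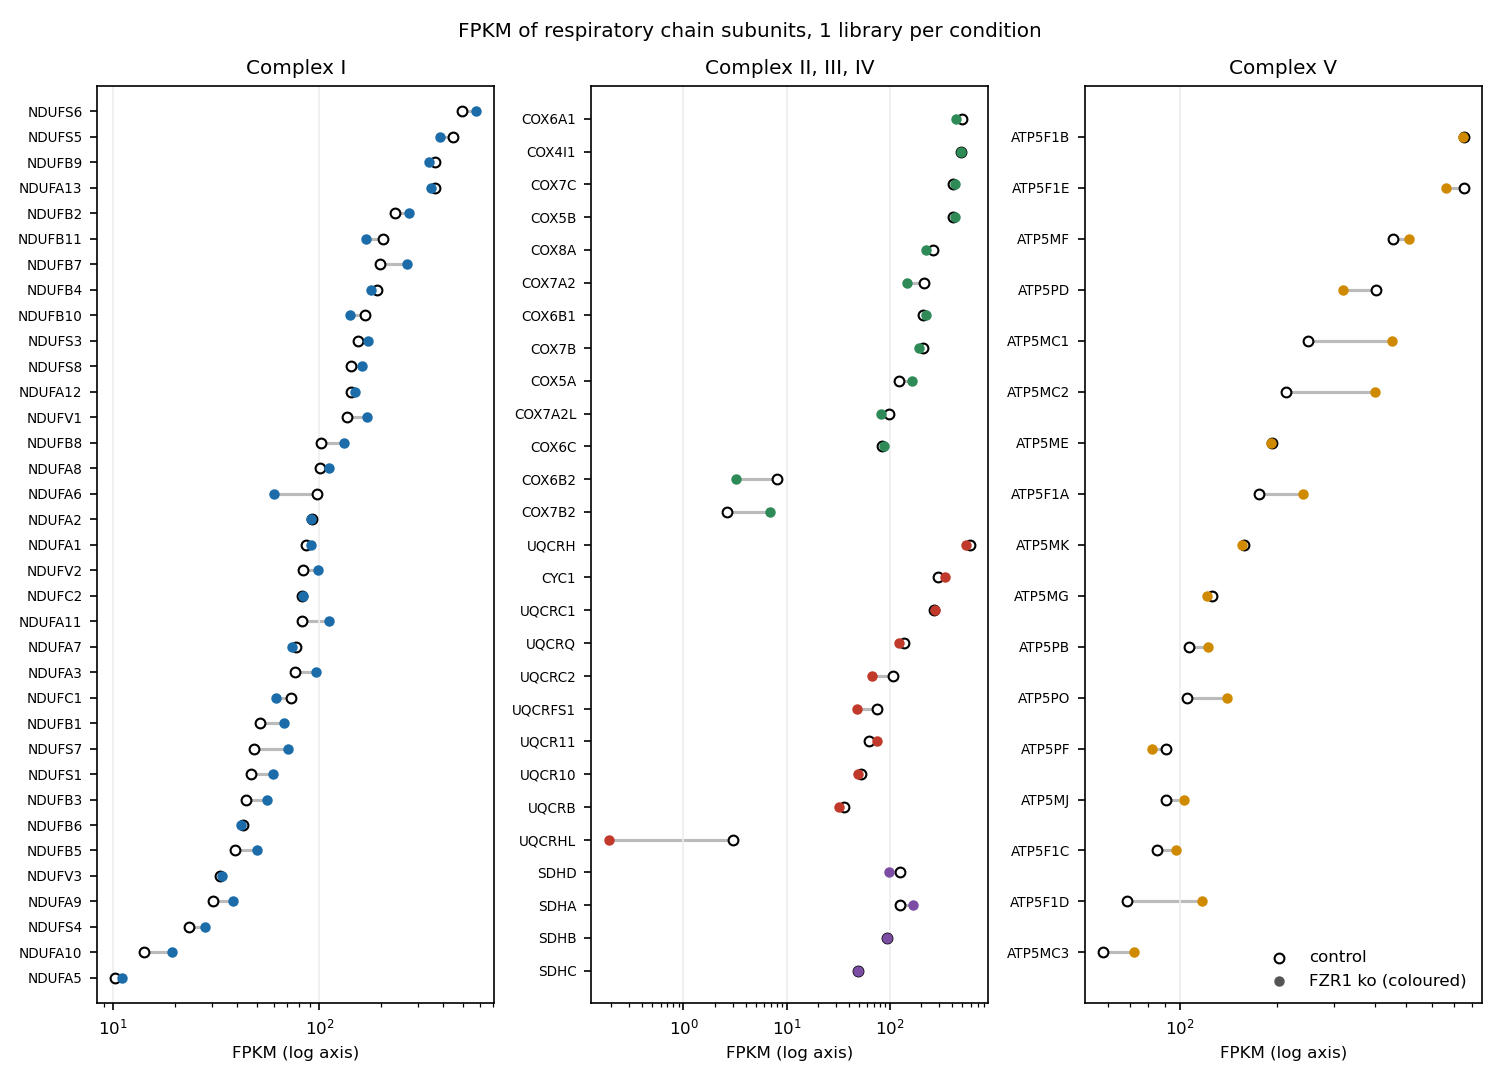
FPKM on a log axis of the compared subunits reported here in control (open circles) and FZR1 ko (filled circles), 1 library per condition, with complex I in the left panel, complexes II (purple), III (red) and IV (green) in the middle and complex V on the right. Most pairs of circles nearly touch, and ATP5MC1, ATP5MC2, ATP5F1D, NDUFA6, UQCRC2, UQCRFS1, COX6B2, COX7B2 and UQCRHL are the pairs set furthest apart.

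Complex II, succinate dehydrogenase, is also an enzyme of the citric acid cycle. Its flavin subunit SDHA, which oxidizes succinate, had 125.15 FPKM in control against 167 FPKM in FZR1 ko (log2 ratio 0.41). The iron-sulphur subunit SDHB had 93.8 and 93.6 FPKM (-0.0030). The membrane anchors SDHC and SDHD bind ubiquinone and heme. SDHC had 49.2 FPKM in control against 49.1 FPKM in FZR1 ko (-0.0040), and SDHD had 126 and 97.9 FPKM (-0.36). SDHA and SDHD were therefore almost equal in control, while in FZR1 ko SDHA was the higher. The 4 genes summed to 394 FPKM in control against 408 FPKM in FZR1 ko. None was past 1.5-fold, beside 18.0% of all genes compared that were higher and 17.6% that were lower.

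Complex III passes electrons from ubiquinol to cytochrome c. Of its 10 nuclear genes 3 were higher in FZR1 ko and 7 lower, the median log2 ratio was -0.15, and the sum was 1623 FPKM in control against 1536 FPKM in FZR1 ko. At least 1.5-fold lower were 3 (30.0%, beside 17.6% of all genes compared), among them UQCRHL, which passed the filter through control alone. None was at least 1.5-fold higher, beside 18.0%. The electron-carrying subunits were split. CYC1, cytochrome c1, had 291 FPKM in control against 337 FPKM in FZR1 ko (log2 ratio 0.21). UQCRFS1, the Rieske iron-sulphur protein (chr19:29205320-29213151), had 75.2 and 47.4 FPKM, a log2 ratio of -0.65. The core proteins, which face the matrix and belong to the processing peptidase family, were split as well. UQCRC1 had 266 FPKM in control against 269.9 FPKM in FZR1 ko (0.019). UQCRC2 (chr16:21953361-21983660) had 107 and 66.8 FPKM (-0.67). With the trend of the ratio with transcript length subtracted, UQCRC2 stood at -0.52 and UQCRFS1 at -0.58, both just inside 1.5-fold, which is 0.585 on this scale, and the median of complex III was -0.043 (-0.033 with the trend of length and GC content subtracted).

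Of the 6 small subunit genes of complex III, 5 were lower in FZR1 ko. UQCRH, the acidic hinge protein that contacts cytochrome c, had the highest mean level of the complex, with 594 FPKM in control against 539 FPKM in FZR1 ko (-0.14). UQCR11, the exception, had 61.7 FPKM in control against 74.6 FPKM in FZR1 ko (0.27), the highest ratio of complex III. UQCRHL, an intronless copy of UQCRH (chr1:15807374-15807649), had 2.99 and 0.19 FPKM, which gave the lowest ratio of all subunits (-1.75) at a level where few reads can make up a value, and it passed the filter through control alone. Its ratio was -0.62 with a pseudocount of 5 FPKM and -3.41 with 0.1 FPKM. Over the last 228 coding bases the pair had 224 bases in common (98.2%), and 72 of the 75 residues encoded there were the same. The transcripts shared an unbroken run of 157 bases, so the split of reads between these genes is uncertain, and UQCRHL held 0.501% of their summed FPKM in control and 0.0352% in FZR1 ko. The last 90 coding bases show how alike they are. They were read from hg38 with GENCODE 44 coding exons, at chr1:46310260-46316584 (plus strand, across an intron) for UQCRH and chr1:15807374-15807463 (minus strand) for UQCRHL, with the 2 bases that differ in capitals.
UQCRH: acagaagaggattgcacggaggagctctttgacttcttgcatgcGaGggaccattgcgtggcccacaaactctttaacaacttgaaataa
UQCRHL: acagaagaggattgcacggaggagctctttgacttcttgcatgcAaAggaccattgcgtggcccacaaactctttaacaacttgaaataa

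Complex IV, cytochrome c oxidase, hands the electrons to oxygen. Of its 17 nuclear genes 13 were compared, and 7 were higher in FZR1 ko and 6 lower. The median log2 ratio was 0.0015, and the sum was 2997 FPKM in control against 2887 FPKM in FZR1 ko. COX4I1, the regulatory subunit with the highest mean level, had 486 FPKM in control against 487 FPKM in FZR1 ko. COX5A, which sits on the matrix side, had 121 and 163 FPKM (0.43), the highest ratio among the widely expressed genes of the complex. COX7A2 had 213 FPKM in control against 146 FPKM in FZR1 ko (-0.54), just short of 1.5-fold. COX7A2L, which links complexes III and IV in supercomplexes, had 96.5 and 80.8 FPKM (-0.25). The other widely expressed subunits lay between -0.22 for COX8A and 0.069 for COX6B1.

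Several subunits of complex IV exist as a widely expressed form and a form restricted to certain tissues. Outside COX7A, the lowest share of a widely expressed form was 96.3%, that of COX6B1 in control, and the members of complex IV past 1.5-fold were restricted forms at a low level. COX6B2, the testis form of COX6B (chr19:55349704-55354719), had 8.03 FPKM in control against 3.25 FPKM in FZR1 ko (log2 ratio -1.09). Its share of the COX6B sum was 3.69% in control and 1.46% in FZR1 ko, and COX6B1 held the rest with 209 and 219.7 FPKM. COX7B2, the testis form of COX7B (chr4:46734827-46909245), went the other way, with 2.65 and 6.81 FPKM and a log2 ratio of 1.10. It held 1.27% of the COX7B sum in control and 3.48% in FZR1 ko, while COX7B had 207 and 189 FPKM (-0.13). Both testis forms are below 10 FPKM, and with a pseudocount of 5 FPKM their ratios were -0.66 and 0.63.

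The restricted genes that were not compared were close to 0. COX4I2, the lung form of COX4, was listed at 0 in both libraries. COX6A2, a heart and skeletal muscle form, was listed at 0 in control and had 0.14 FPKM in FZR1 ko, beside 495 and 437 FPKM of COX6A1 (log2 ratio -0.18). COX7A1, the muscle form of COX7A, had 0.24 FPKM in control against 0.15 FPKM in FZR1 ko. COX8C, a testis form, had 0.44 FPKM in control but in FZR1 ko was listed at 0, beside 260.5 and 224 FPKM of COX8A. ATP5MGL of complex V, a copy of ATP5MG, had 0.38 and 0.41 FPKM and was not compared either. The lung and muscle forms were thus at or near 0 in both libraries.

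Complex V had the highest ratio of sums of the 5 complexes. Its 18 genes summed to 4083 FPKM in control against 4534 FPKM in FZR1 ko, a ratio of 1.11. Of the 17 compared, 10 were higher in FZR1 ko and 7 lower, with a median log2 ratio of 0.19, and 3 (17.6%, beside 18.0% of all genes compared) were at least 1.5-fold higher and none 1.5-fold lower. Without ATP5MC1 and ATP5MC2 the remaining 16 genes summed to 3623 and 3682 FPKM, a ratio of 1.02.

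The F1 part, which makes ATP, had nearly the same sum in control (1836 FPKM) and FZR1 ko (1866 FPKM). ATP5F1B, the catalytic beta subunit and the most abundant of all subunits on average, had 753 FPKM in control against 749 FPKM in FZR1 ko (-0.0082). ATP5F1A, the alpha subunit, had 176 and 239 FPKM (0.44). ATP5F1C, the gamma subunit of the rotating stalk, had 85.3 and 97.6 FPKM (0.19). The remaining F1 genes encode small subunits at the foot of that stalk, and they went opposite ways. ATP5F1D, the delta subunit (chr19:1241751-1244825), had 68.6 FPKM in control against 117 FPKM in FZR1 ko (log2 ratio 0.76). ATP5F1E, the epsilon subunit, had 753 and 663 FPKM (-0.18).

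In the membrane part and the peripheral stalk 7 of 12 compared genes were higher in FZR1 ko, and the sum was 2247 FPKM in control against 2669 FPKM in FZR1 ko, a ratio of 1.19. Most of that difference lay in subunit c, which forms the proton-driven ring and is made from 3 genes. ATP5MC1 (chr17:48892787-48895871) had 248 FPKM in control against 453 FPKM in FZR1 ko (log2 ratio 0.87). ATP5MC2 (chr12:53665170-53681423) had 212 and 399.9 FPKM, a log2 ratio of 0.91. ATP5MC3 had 57.8 and 72.1 FPKM (0.31). Together the genes of subunit c summed to 518 FPKM in control against 925 FPKM in FZR1 ko. The share of ATP5MC1 in that sum was 47.9% in control and 49.0% in FZR1 ko, that of ATP5MC2 was 41.0% and 43.2%, and that of ATP5MC3 was 11.2% and 7.80%. ATP5PO, a stalk subunit that joins F1 to the membrane part, had 105 and 139.9 FPKM (0.41). The lowest ratio of complex V belonged to ATP5PD, subunit d of the stalk, with 404 FPKM in control against 319 FPKM in FZR1 ko (-0.34). ATP5PF, coupling factor 6 in the stalk, had 90.5 and 81.8 FPKM (-0.14).

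**Figure D3:**
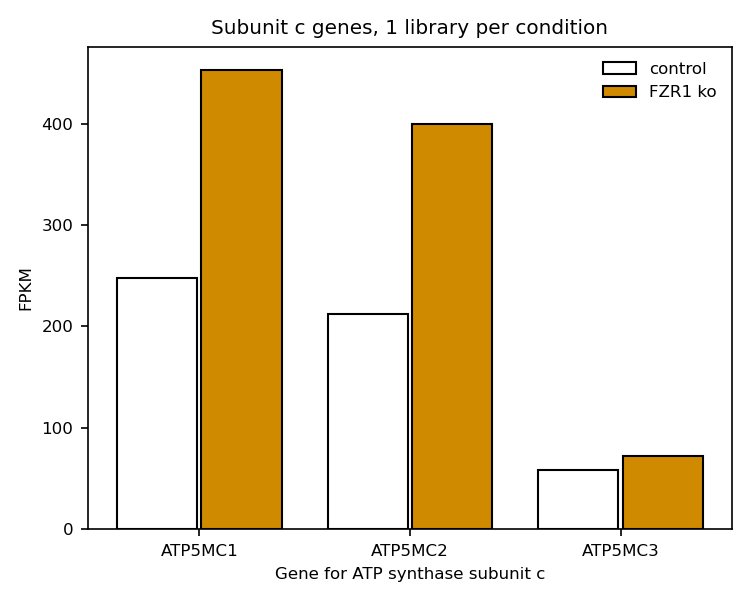
FPKM of the 3 genes for ATP synthase subunit c in control (white bars) and FZR1 ko (filled bars), 1 library each and therefore without error bars, on an axis that starts at 0. ATP5MC1 goes from 248 to 453 FPKM and ATP5MC2 from 212 to 399.9 FPKM, while ATP5MC3 goes from 57.8 to 72.1 FPKM.

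The genes of subunit c differ in the targeting sequences they encode and give the same mature protein. Over the last 228 coding bases ATP5MC1 and ATP5MC2 had 203 bases in common (89.0%), and ATP5MC3 had 185 in common with each of them (81.1%), while all 75 encoded residues were the same in all 3. The longest run of bases shared by whole transcripts was 17 for ATP5MC1 and ATP5MC2, 11 for ATP5MC1 and ATP5MC3 and 17 for ATP5MC2 and ATP5MC3. No shared run was thus longer than 17 bases, although the encoded residues are the same. The last 90 coding bases are shown for that reason, from hg38 with GENCODE 44 coding exons, with the 25 positions at which the 3 are not all the same in capitals. ATP5MC1 lies at chr17:48895680-48895769 (plus strand), ATP5MC2 at chr12:53665314-53665403 (minus strand) and ATP5MC3 at chr2:175178288-175178377 (minus strand), each within 1 exon.
ATP5MC1: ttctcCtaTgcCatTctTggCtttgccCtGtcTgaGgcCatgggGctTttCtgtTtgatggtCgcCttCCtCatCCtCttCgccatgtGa
ATP5MC2: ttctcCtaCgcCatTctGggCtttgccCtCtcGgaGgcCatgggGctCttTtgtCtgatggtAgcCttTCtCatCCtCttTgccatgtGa
ATP5MC3: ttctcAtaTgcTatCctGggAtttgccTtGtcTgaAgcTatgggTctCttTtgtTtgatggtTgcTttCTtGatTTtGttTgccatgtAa

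Nuclear respiratory genes are known for promoters that bind NRF1, the ETS factor GABP, YY1 or CREB, together with coactivators such as PGC-1alpha. The mRNA of NRF1 had 2.54 FPKM in control against 3.56 FPKM in FZR1 ko (log2 ratio 0.37). The DNA-binding subunit of GABP, GABPA, had 7.97 and 5.02 FPKM (-0.58), and its partner GABPB1 had 20.2 and 13.0 FPKM (-0.60). YY1 had 21.4 and 28.9 FPKM (0.42), and CREB1 had 8.18 and 9.40 FPKM (0.18). PPARGC1A, which encodes PGC-1alpha, had 0.52 FPKM in control against 2.24 FPKM in FZR1 ko (1.09). It was the highest ratio among 26 compared nuclear regulators of respiratory genes, but PPARGC1A passed the filter through FZR1 ko alone. Among the regulators with at least 1 FPKM in each library LRPPRC, which stabilizes mitochondrial mRNA, was the highest, with 34.1 and 67.4 FPKM (0.96), and GABPB1 the lowest. Of these regulators 15 were higher and 11 lower, 4 (15.4%, beside 18.0% of all genes compared) at least 1.5-fold higher and 1 (3.85%, beside 17.6%) at least 1.5-fold lower, with a median of 0.10. The regulators of this list thus differed in both directions.

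RefSeq promoters on GRCh38.p14, each a window of 300 bases around the start of transcription, were at hand for 68 of the 85 subunits. They were searched on both strands for GCGCATGC (NRF1), CCGGAAG (GABP and other ETS factors), AAGATGGCG (YY1) and TGACGT (the core shared by CREB sites). The NRF1 letters were in 13 of 68 promoters (19.1%), beside 3.27% of all 27305 promoters and 5.79% of those of 9538 compared protein-coding genes. The GABP letters were in 20 (29.4%, beside 10.7% and 20.5%), the YY1 letters in 8 (11.8%, beside 1.85% and 4.13%) and the CREB letters in 13 (19.1%, beside 8.32% and 12.1%). Among the 66 compared subunits with a promoter, the 20 with the GABP letters had a median log2 ratio of -0.012 and 8 of them were higher in FZR1 ko, while the 46 without had a median of 0.18 and 30 were higher. For the NRF1 letters the medians were -0.0030 with and 0.069 without, for YY1 0.0079 and 0.066, and for CREB 0.036 and 0.063. A match of letters is not a bound site, and none of these splits was tested.

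The promoters of the subunits with the largest rises and falls among those that reached 10 FPKM in each library are shown, since ATP5MC1 and ATP5MC2 were both higher and NDUFA6 and UQCRC2 both lower. They are ATP5MC2 at chr12:53676034-53676333 (minus strand), ATP5MC1 at chr17:48892537-48892836 (plus strand), NDUFA6 at chr22:42090723-42091022 (minus strand) and UQCRC2 at chr16:21953111-21953410 (plus strand). Capitals mark the motif letters found, which are NRF1 in ATP5MC2, a pair of CREB matches that overlap on opposite strands in ATP5MC1, NRF1 and then YY1 in NDUFA6, and a CREB match in UQCRC2. The promoters of ATP5MC1 and ATP5MC2 held no motif in common, and the NRF1 letters were present both in a gene that was higher and in a gene that was lower in FZR1 ko.
ATP5MC2: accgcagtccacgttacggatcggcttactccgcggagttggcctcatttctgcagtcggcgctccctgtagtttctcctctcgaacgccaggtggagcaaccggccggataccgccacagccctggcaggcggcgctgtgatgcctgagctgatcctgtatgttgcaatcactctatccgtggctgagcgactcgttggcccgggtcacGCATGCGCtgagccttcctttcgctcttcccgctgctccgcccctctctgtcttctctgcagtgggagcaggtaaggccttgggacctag
ATP5MC1: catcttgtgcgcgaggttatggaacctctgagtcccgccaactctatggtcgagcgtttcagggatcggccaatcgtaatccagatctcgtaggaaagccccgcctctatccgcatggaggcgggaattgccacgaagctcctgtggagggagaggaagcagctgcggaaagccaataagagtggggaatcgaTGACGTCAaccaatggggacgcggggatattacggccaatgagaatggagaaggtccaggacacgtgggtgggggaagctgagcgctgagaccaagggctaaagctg
NDUFA6: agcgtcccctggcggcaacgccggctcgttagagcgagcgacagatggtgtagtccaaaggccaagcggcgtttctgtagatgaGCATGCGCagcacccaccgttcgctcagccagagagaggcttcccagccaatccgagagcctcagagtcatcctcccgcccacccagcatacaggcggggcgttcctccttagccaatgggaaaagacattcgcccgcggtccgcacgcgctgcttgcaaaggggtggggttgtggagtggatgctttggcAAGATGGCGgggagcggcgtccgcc
UQCRC2: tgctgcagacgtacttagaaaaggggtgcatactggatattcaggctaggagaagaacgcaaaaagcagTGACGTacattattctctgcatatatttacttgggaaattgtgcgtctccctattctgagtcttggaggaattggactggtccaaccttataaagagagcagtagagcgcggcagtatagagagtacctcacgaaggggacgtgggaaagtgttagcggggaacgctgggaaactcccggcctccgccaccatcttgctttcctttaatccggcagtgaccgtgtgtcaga

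Assembly factors help to build the complexes without remaining in them, and they spread more widely than the subunits at a lower median level (25.3 FPKM in control). Of 65 compared factors 34 were higher in FZR1 ko and 31 lower, with 9 (13.8%, beside 18.0% of all genes compared) at least 1.5-fold higher and 8 (12.3%, beside 17.6%) at least 1.5-fold lower, and their median log2 ratio was 0.087. Among the 19 factors of complex I, 12 were higher and 7 lower (median 0.26). NDUFAF8 had 34.9 FPKM in control against 76.1 FPKM in FZR1 ko (1.10), and NDUFAF1, a factor of the membrane arm, had 30.4 and 11.3 FPKM (-1.35). The 4 factors of complex II ran from SDHAF4, which acts on SDHA and had 13.0 and 6.78 FPKM (-0.85), to SDHAF3, with 3.77 and 6.93 FPKM (0.73). For complex III, 7 of 9 factors were higher (median 0.17). UQCC2 had 17.6 FPKM in control against 41.9 FPKM in FZR1 ko (1.20), and UQCC4 had 42.0 and 17.2 FPKM (-1.25).

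The complex IV list held 27 factors, of which 12 were higher and 15 lower (median -0.058, and 0.061 with the trend with transcript length subtracted). SCO2, which delivers copper, had 25.7 FPKM in control against 12.0 FPKM in FZR1 ko (-1.04), and COA3 had 27.1 and 44.1 FPKM (0.68). For complex V, 5 of 6 factors were lower (median -0.35), the opposite direction to most of its subunits. TMEM70, which helps subunit c to assemble into its ring, had 30.9 FPKM in control against 18.9 FPKM in FZR1 ko (-0.68), beside the higher ATP5MC1 and ATP5MC2. DMAC2L was the 1 factor that was higher, with 3.45 and 4.09 FPKM (0.19).

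Proteins that work with the complexes but fall outside the name rule had a median log2 ratio of -0.49, with 5 of 6 compared lower in FZR1 ko. COXFA4L2 and COXFA4L3 passed the filter through control alone, and among those with at least 1 FPKM in each library 3 of 4 were lower and the median was -0.28 (-0.30 for all 6 with a pseudocount of 5 FPKM). CYCS, cytochrome c, had 106 FPKM in control against 67.5 FPKM in FZR1 ko (-0.64). NDUFAB1, the mitochondrial acyl carrier protein, which is part of complex I, had 84.1 and 66.6 FPKM (-0.33). COXFA4, formerly NDUFA4 and now assigned to complex IV, had 206 and 174 FPKM (-0.24). Its relatives COXFA4L2 and COXFA4L3 were low, at 1.13 and 2.48 FPKM in control and 0.05 and 0.14 FPKM in FZR1 ko. ATP5IF1, the inhibitor of ATP synthase, had 227 and 238 FPKM (0.068). Genes whose products bring electrons to ubiquinone by other routes were mostly higher, 7 of 9 with a median of 0.27 (0.15 with a pseudocount of 5 FPKM). None of these 9 was past 1.5-fold, beside 18.0% of all genes compared that were higher and 17.6% that were lower. The 9 ran from SQOR, the sulfide oxidase (23.2 and 17.1 FPKM, -0.42), to GPD2, glycerol-3-phosphate dehydrogenase (6.24 and 9.01 FPKM, 0.47).

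The median of the respiratory chain subunits lay above that of the mitochondrial ribosomal proteins and below those of the cytosolic ribosomal proteins, the citric acid cycle and glycolysis. Of 77 mitochondrial ribosomal proteins 39 were higher in FZR1 ko and 38 lower, with a median log2 ratio of 0.0014, and 6 (7.79%) were at least 1.5-fold higher and 3 (3.90%) at least 1.5-fold lower. Of 82 compared cytosolic ribosomal proteins 70 were higher and 12 lower, with a median of 0.17 and 2 (2.44%) at least 1.5-fold higher. The citric acid cycle, which supplies NADH and succinate, had 14 of 19 genes higher (median 0.17) and 2 (10.5%) at least 1.5-fold higher. All of these shares were below those of all genes compared, which were 18.0% higher and 17.6% lower. OGDH, the first enzyme of the oxoglutarate dehydrogenase complex, had 35.5 FPKM in control against 92.5 FPKM in FZR1 ko (1.36), and IDH2 had 26.5 and 20.9 FPKM (-0.33). For glycolysis and lactate 16 of 24 genes were higher (median 0.21), with 4 (16.7%, near the share of all genes) at least 1.5-fold higher and 2 (8.33%) at least 1.5-fold lower. The list ran from ALDOA, an aldolase with 1380.0 and 903 FPKM (-0.61), to PDK1, a pyruvate dehydrogenase kinase with 1.73 and 4.27 FPKM (0.95). The sum over that list went the other way, with 8709 FPKM in control against 8046 FPKM in FZR1 ko.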

How the data were processed

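Total RNA from cisplatin-treated control and FZR1 ko cells was sequenced by the authors on the BGISEQ-500 platform. Their methods name Bowtie2 (alignment to transcripts) and RSEM on hg38, and the submitters' processing notes list Trimmomatic 0.36, HISAT2 2.1.0, Bowtie2 2.2.5 and RSEM. The annotation version is not given in the sources used here. The authors deposited FPKM per Entrez gene, rounded to 2 decimals. FPKM holds no counts, so depth is unknown, and it shares 1 total among all genes of a library.

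The table had 24663 rows, of which 1630 without a value were left out. Symbols came from RefSeq (GRCh38.p14) and matched 22925 of 23033 genes (99.5%). Log2 ratios with a pseudocount of 1 FPKM were computed on all genes with at least 1 FPKM in either library (Python 3.11.15, pandas 2.3.3), checked on simulated data. The pseudocount understates the change of low genes. With 1 library per group there was no test, and subunits, complexes and lists were described by counts past 1.5-fold and 2-fold and by medians beside all genes. Transcript length and GC content were those of the longest GENCODE 44 transcript.

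The gene lists, like the members, were chosen with earlier results of these data known. The values of some genes within the naming rule are not reported here. Genes named are FZR1, members past 1.5-fold, the highest and lowest ratios (3 each in complexes I, IV and V) and the highest mean level of each complex, catalytic and core subunits, complex II, isoform sets, members listed at 0, and the extremes of the assembly factor, regulator, electron input, citric acid cycle and glycolysis lists. NDUFA5, NDUFB8, ATP5F1A, ATP5F1C, ATP5PO, the motif-binding factors, LRPPRC, the marker genes given with values and the proteins outside the name rule were named after their values were seen. Alternatives were pseudocounts of 0.1 and 5 FPKM, other filters, median centring, equal sums, protein-coding genes only, a lower fold threshold (0.32 on the log2 scale), and subtraction of the trend with transcript length (20 groups). Subtraction over 10 by 10 groups of length and GC was chosen after seeing the data.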

Additional observations from a re-analysis of the deposited data

How the results depend on the processing

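With 1 library per condition no replicate could be left out. No paired analysis was possible because each group has 1 library and no test was made. Over the alternatives the median log2 ratio of the subunits stayed between 0.037 and 0.14, and that of their summed FPKM, 0.057, was 0.081 without the 5 most abundant. Of 171 medians under alternatives 155 moved by under 0.1 and 9 changed sign, and of 796 subunit values 696 moved by under 0.1 and 28 changed sign, none of them larger than 0.21. Depth is unknown, so the error of low values such as UQCRHL cannot be given.

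Beside the 4 subunits at least 1.5-fold higher there were 20 at a lower threshold of 0.32 on the log2 scale, which 30.4% of all genes compared passed, and 7 (8.75%, beside 17.1% of all genes) after subtraction of the length and GC trend. Beside the 5 lower there were 8 at the lower threshold, which 30.2% of all genes passed, and 3 with at least 10 FPKM in both libraries (3.90%, beside 15.2%) and after subtraction of the length trend or of the length and GC trend (3.75%, beside 17.3% under each). UQCRC2 and UQCRFS1 left 1.5-fold with the length trend, and NDUFA6 (-0.56) and UQCRC2 (-0.45) with length and GC. On the higher side NDUFB7 (0.64) came past 1.5-fold with the length trend, and COX5A (0.63), NDUFB8 (0.68) and NDUFS7 (0.64) with length and GC. At 2-fold, 0 were higher with at least 10 FPKM in both (2.43% of all genes) or a pseudocount of 5 FPKM (1.35%) and 2 after either trend (6.11% and 6.07%), and lower were 1 with at least 1 FPKM in both (5.13%) or the length trend (6.15%) and 0 with at least 10 FPKM in both (4.24%) or a pseudocount of 5 FPKM (1.99%).

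The median of complex II was 0.16 after the length and GC trend, that of complex III -0.043 after the length trend and -0.033 after length and GC, and that of complex V 0.29 after length and GC. After the length trend the complex I assembly factors had a median of 0.37 and those of complex IV 0.061. With at least 10 FPKM in both libraries the medians were 0.21 for the complex II and -0.49 for the complex V assembly factors, 0.15 for electron input to ubiquinone, 0.10 for glycolysis and -0.28 for the proteins outside the name rule. With a pseudocount of 5 FPKM they were -0.25 for the complex V assembly factors, 0.15 for electron input and -0.30 for the proteins outside the name rule. For these proteins the median was -0.28 with at least 1 FPKM in both. Without a filter it was -0.33, but that value takes in ATP5MGL, which was listed there although it falls within the name rule. The length trend shifts short transcripts, since the ratio of all genes had a Spearman correlation of 0.19 with length and the longest transcript of the subunits had a median of 1591 bases against 3479 for all genes. Other causes were not tested.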

Other observations

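Position in the genome gave a further description of the subunits. Of the 80 compared, 11 lie on chromosome 19, among them NDUFS7, NDUFB7, NDUFA11 and ATP5F1D on the higher side and UQCRFS1 and COX6B2 on the lower side. Of these 11, 7 were higher in FZR1 ko and their median log2 ratio was 0.27, while the 1010 compared genes of chromosome 19 had a median of -0.045. The 69 subunits on other chromosomes had a median of 0.037, with 39 higher and 30 lower. The difference was not tested.

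Split into 3 groups by the GC content of the longest transcript, the 27 subunits of lowest GC (median 40.8%) had a median log2 ratio of 0.037, the 26 in the middle (47.05%) 0.021 and the 27 of highest GC (57.9%) 0.14.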
